A study of Mus musculus with 40 samples.

Results

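The Notch receptors Notch1, Notch2, Notch3 and Notch4 and the ligands Jag1, Jag2, Dll1 and Dll4 were followed in brown adipose tissue, the heat-producing fat of the mouse. They are 8 of the 52636 genes in the deposited count table and were chosen by gene symbol, through their Ensembl identifiers. All 8 passed the filter on low counts and were among the 17079 genes tested. The tissue came from 40 male C57BL/6 mice, 5 in each of 8 groups, and was read by bulk RNA sequencing.

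Control mice received 1 intraperitoneal dose of an isotype control antibody against ragweed at 40 mg/kg. The other mice, called Jag antibody mice here, received blocking antibodies against the Jag1 and Jag2 proteins, at 20 mg/kg each. Both sets of mice were collected at 15 h, 5 d or 7 d. The fourth pair of groups was also collected at 7 d and was injected daily from day 2 with thyroid hormone, as T4 at 1 ug/g and T3 at 0.05 ug/g of body weight. The labels name no altered allele in any group, and every mouse received an antibody, so no group was without one. The age of the mice is given as 10 to 14 weeks in the treatment protocol and as 10 to 12 weeks in the design text.

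Notch receptors are single-pass membrane proteins that are cut when a ligand on a neighbouring cell pulls on them, and the freed intracellular part then acts in the nucleus with the DNA-binding protein RBPJ. In blood vessels, Dll4 on endothelial cells signals to Notch1 on their neighbours, while Jag1 on endothelial cells signals to Notch3 on the mural cells (pericytes and smooth muscle) around them. Brown fat is densely supplied with capillaries. The antibodies act on the ligand proteins, so the Jag1 and Jag2 transcripts do not measure the block itself.

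The 4 receptor genes and 4 ligand genes lie on 4 chromosomes of the GRCm38 build. Notch1 (ENSMUSG00000026923), Jag1 (ENSMUSG00000027276) and Dll4 (ENSMUSG00000027314) are on chromosome 2. Notch3 (ENSMUSG00000038146), Notch4 (ENSMUSG00000015468) and Dll1 (ENSMUSG00000014773) are on chromosome 17. Notch2 (ENSMUSG00000027878) is on chromosome 3 and Jag2 (ENSMUSG00000002799) on chromosome 12. Exonic length ranged from 3852 bases in Dll4 to 14232 bases in Notch1. Exons of an opposite-strand non-coding gene covered 20.5% of the exonic length of Dll1 and 7.5% of that of Notch1. Whether the counting used strand is not given in the sources used here, so the values of Dll1 are uncertain to that extent.

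RefSeq promoter windows on GRCm38.p6 covered all 8 genes, with 9 windows in all because Dll1 has 2 annotated starts. Each window ran from 250 bases before a start to 50 bases after it. The sequences shown are the 250 bases before the start for the 3 receptors that rose with hormone under both antibodies, and for the Dll1 start that holds a nuclear receptor half-site. They read 5′ to 3′ on the strand of the gene, and the capitals mark GC boxes (GGGCGG or its reverse complement) and the half-site AGGTCA.
Notch2, chr3:98013288-98013537, plus strand: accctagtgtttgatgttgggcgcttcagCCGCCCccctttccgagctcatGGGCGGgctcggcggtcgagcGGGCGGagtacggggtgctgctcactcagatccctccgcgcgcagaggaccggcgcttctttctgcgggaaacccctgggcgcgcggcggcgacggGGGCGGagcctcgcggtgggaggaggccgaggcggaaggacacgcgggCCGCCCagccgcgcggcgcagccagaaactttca
Notch3, chr17:32166891-32167140, minus strand: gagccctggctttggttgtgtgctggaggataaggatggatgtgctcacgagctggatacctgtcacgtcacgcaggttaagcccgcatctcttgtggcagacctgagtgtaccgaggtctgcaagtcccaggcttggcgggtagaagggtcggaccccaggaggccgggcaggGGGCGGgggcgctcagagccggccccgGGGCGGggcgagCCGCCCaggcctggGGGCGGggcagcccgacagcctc
Notch4, chr17:34564045-34564294, plus strand: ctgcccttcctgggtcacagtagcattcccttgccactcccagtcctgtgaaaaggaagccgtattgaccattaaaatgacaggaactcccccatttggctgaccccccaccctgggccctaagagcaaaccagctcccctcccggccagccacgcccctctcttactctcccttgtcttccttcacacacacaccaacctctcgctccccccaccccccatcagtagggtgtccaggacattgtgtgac
Dll1, chr17:15375824-15376073, minus strand: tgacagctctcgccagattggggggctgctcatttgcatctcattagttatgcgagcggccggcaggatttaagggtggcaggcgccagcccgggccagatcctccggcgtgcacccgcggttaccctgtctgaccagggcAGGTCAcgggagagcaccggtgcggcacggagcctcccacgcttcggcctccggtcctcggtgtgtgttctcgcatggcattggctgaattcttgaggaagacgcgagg

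The members' promoters differed in base composition and in these motifs. Within the whole windows, Notch2 held 7 GC boxes and Notch3 held 4, while Notch4, both Dll1 windows and Jag1 held none. At least 1 GC box was found in 5 of the 9 windows, against 35.7% of the 32851 RefSeq promoter windows of the same length. The RBPJ core TGGGAA, searched on both strands, was in 0 of the 9 windows and in 25.6% of all windows. The half-site AGGTCA was in 1 of 9 windows and in 16.3% of all, and the TATA box TATAAA was in 0 of 9 and in 13.6% of all. These letter matches are descriptions of the windows only.

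To compare genes with one another, CPM values (counts scaled to a common library total by the TMM method) were divided by exonic length in kilobases (kb). This level, in CPM per kb, was highest for Jag1 and Dll4 and lowest for Dll1. Over the 40 mice it was 5.27 ± 1.60 (SD, n = 40) for Jag1, 5.08 ± 3.11 for Dll4, 3.91 ± 2.07 for Notch2 and 2.81 ± 1.67 for Notch4. The lower 4 were Notch3 at 2.19 ± 1.47, Jag2 at 2.08 ± 0.753, Notch1 at 2.02 ± 1.03 and Dll1 at 1.15 ± 0.450. The place of Notch1 below Notch3 and Jag2 depended on the length used, as described at the end. Notch2 was the most abundant receptor in 7 of the 8 groups. The exception was control mice at 5 d, where Notch3 (2.91 ± 1.70, SD, n = 5) stood just above Notch2 (2.66 ± 1.13) and their mice overlapped. Jag1 led all 8 genes in control and Jag antibody mice at 15 h and 5 d, and Dll4 led in the 4 groups at 7 d. In every one of those 8 groups except Jag antibody mice at 15 h, the 2 highest genes overlapped in range with each other.

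Going down the order, neighbours mostly did not differ beyond the spread of the mice. The ranges of adjacent genes were separate at 1 step in each of 4 groups and overlapped at all the others. In control mice at 15 h the step lay between Dll4 (3.85 ± 0.559) and Notch3 (1.98 ± 0.667). In Jag antibody mice it lay between Jag1 (5.26 ± 0.544) and Notch2 (2.84 ± 0.451) at 15 h, between Dll4 (4.28 ± 0.630) and Notch2 (2.46 ± 0.556) at 5 d, and between Jag1 (5.34 ± 0.464) and Notch2 (3.06 ± 0.149) at 7 d. Dll1 was last in 7 groups, and in Jag antibody mice at 7 d Notch3 (0.936 ± 0.460) stood below Dll1 (0.964 ± 0.337) with overlap. Notch3 held the widest range of ranks: it followed only Jag1 and Dll4 in control mice at 5 d and came last in Jag antibody mice at 7 d.

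The block of Jag1 and Jag2 was accompanied by lower Notch3 and by no other called change among the 8 genes. A gene is called when its Benjamini-Hochberg adjusted p from edgeR's quasi-likelihood test, over all 17079 genes, is under 0.05. Notch3, the receptor found mainly on mural cells, fell at 5 d and at 7 d with hormone. At 5 d, 1 of the 8 members fell, where 5.93% of all tested genes fell and 8.02% were called in either direction. At 7 d with hormone, 1 of 8 fell, against 0.439% of all genes falling and 1.14% called either way.

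At 15 h, Notch3 stood at 19.2, 8.20, 12.7, 18.8 and 21.1 CPM in the control mice and at 11.5, 9.58, 6.68, 11.1 and 9.24 CPM in the Jag antibody mice. The groups overlapped through control mouse 2, and the log2 fold change was -0.73 (SE 0.35, adjusted p = 0.39). At 5 d, the control mice held 41.0, 12.7, 30.4, 26.8 and 6.80 CPM and the Jag antibody mice held 7.97, 6.96, 11.5, 11.2 and 14.3 CPM. The control mice at 5 d spread widely, with 3 of them above all Jag antibody mice and 2 inside or below their range. The log2 fold change at 5 d was -1.18 (SE 0.35, 95% interval -1.89 to -0.47, edgeR adjusted p = 0.0338), 0.441 times the control level.

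At 7 d without hormone, Notch3 was at 10.2, 10.6, 28.3, 14.7 and 19.7 CPM in control mice and at 4.09, 5.12, 12.6, 5.59 and 10.5 CPM in Jag antibody mice. The log2 fold change of -1.14 (SE 0.35, interval -1.86 to -0.42) did not pass the test (adjusted p = 0.0719). At 7 d with hormone, control mice held 40.4, 44.1, 42.9, 36.8 and 43.6 CPM and Jag antibody mice held 11.0, 10.7, 22.5, 20.3 and 16.7 CPM. Here every control mouse stood above every Jag antibody mouse. The log2 fold change was -1.35 (SE 0.35, interval -2.07 to -0.64, edgeR adjusted p = 0.0455), 0.391 times the control level. The antibody by hormone interaction for Notch3 was -0.21 on the log2 scale (interval -1.22 to 0.79, adjusted p = 0.861), so the effects with and without hormone were not shown to differ.

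Both calls of Notch3 were close to the threshold. At 5 d the call was lost in 7 of the 10 fits that left out 1 mouse, with adjusted p up to 0.0844 and log2 fold changes from -1.45 to -0.89; it was kept without control mouse 2, control mouse 5 or Jag antibody mouse 10. At 7 d with hormone it was lost in 9 of 10, with adjusted p up to 0.16 and log2 fold changes from -1.50 to -1.24, and was kept only without Jag antibody mouse 9. The call at 5 d was also lost with a skeletal muscle score as a covariate (log2 fold change -1.26, adjusted p = 0.179). That score was far higher in the control mice at 5 d than in the Jag antibody mice (mean log2 CPM of 8 muscle genes 9.90 ± 3.31 against -0.14 ± 1.95, SD, n = 5), and its part in the result was not tested further.

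**Figure D1:**
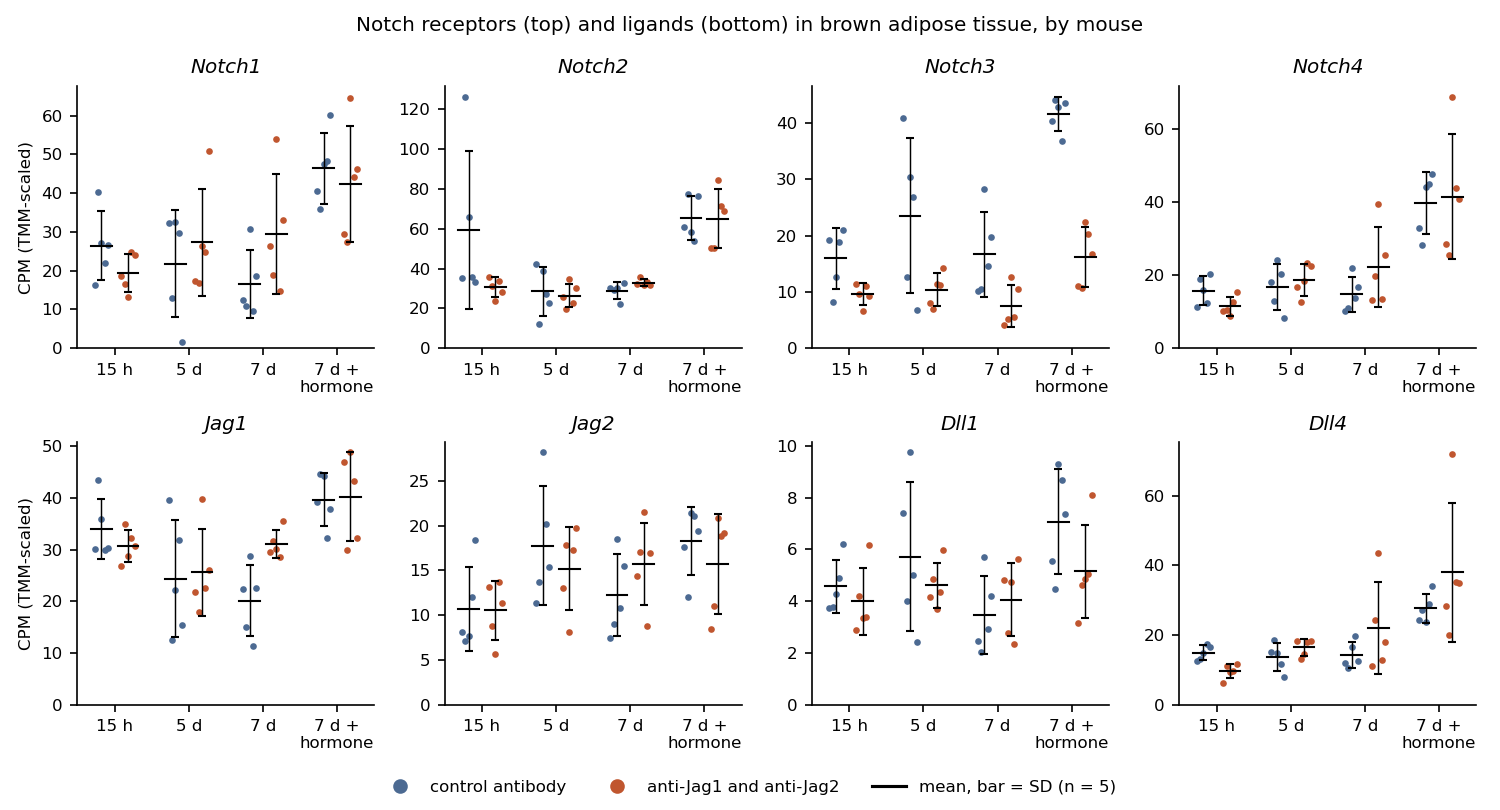
Level of each receptor (upper row) and ligand (lower row) in TMM-scaled CPM, 1 point per mouse, with the mean and SD of 5 mice per group (blue, control antibody; orange, Jag1 and Jag2 antibodies). Notch3 lies below the control mice in all 5 Jag antibody mice at 7 d with hormone, from 10.7 to 22.5 against 36.8 to 44.1 CPM.

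Expressed as a share of the 4 receptors, which removes any scale factor common to them, Notch3 separated the antibody groups from 5 d on. A share does not remove a library's trend with exonic length (described below), because the receptors differ in length. Exonic length was 14.2 kb for Notch1 and 8.09 kb for Notch3, and their longest transcripts were 9488 and 8016 bases. Shares corrected for the library's trend were not computed. In control mice its share of the summed CPM per kb was 29.9 ± 6.08% at 5 d (SD, n = 5), and at 7 d it was 25.8 ± 4.80% without hormone and 26.6 ± 2.35% with it. The Jag antibody mice had shares of 16.0 ± 0.812%, 10.2 ± 2.50% and 12.4 ± 1.03%. The ranges did not overlap at any of these: the lowest control share was 20.5% at 5 d, 20.3% at 7 d and 23.8% with hormone, and the highest Jag antibody share was 17.1%, 13.3% and 14.2%. At 15 h the shares overlapped, from 5.67 to 29.0% in control mice and from 15.5 to 19.3% in Jag antibody mice. The share of Notch4, an endothelial receptor, was 25.3 ± 4.44% in control and 31.2 ± 2.84% in Jag antibody mice with hormone, and these ranges overlapped.

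**Figure D2:**
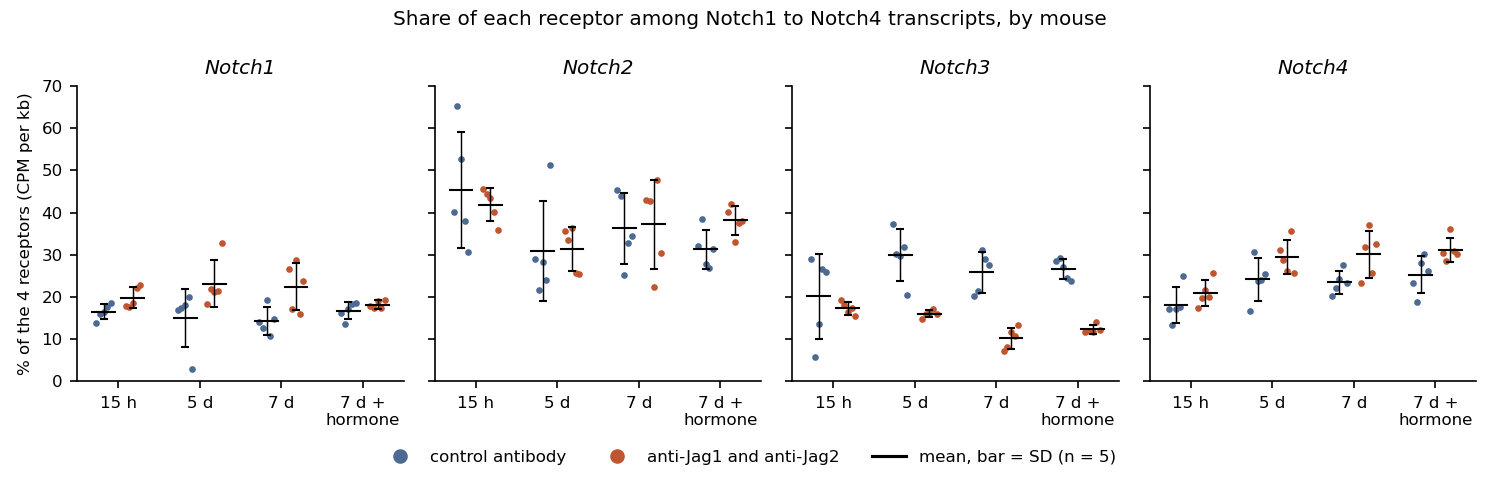
Share of each receptor in the summed CPM per kb of Notch1 to Notch4, in percent, 1 point per mouse, with mean and SD of 5 mice. The Notch3 shares of control mice (blue) lie above those of Jag antibody mice (orange) without overlap at 5 d, 7 d and 7 d with hormone, and the groups overlap at 15 h.

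The other receptors and the ligands gave no called change with the antibody. At 15 h edgeR called 0 of 8 members, against 1.14% of all genes, with 3 (Notch2, Notch3 and Dll4) at an unadjusted p under 0.05, as were 2052 of the 17079 genes; DESeq2 called 1 (Notch2) and limma-voom 0. All 8 log2 fold changes at 15 h were below 0, with a median of -0.45 against -0.04 over all tested genes. All 10 myeloid markers were also below 0 at 15 h (median -2.40, 2 called lower), and all 10 brown adipocyte markers were above 0 (median 0.64, 1 called higher). The part of these markers in the values at 15 h was not tested. At 7 d edgeR called 0 of 8, against 2.5% of all genes, with 4 (Notch3, Notch4, Jag1 and Dll4) at an unadjusted p under 0.05, as were 3504 of the 17079 genes; DESeq2 called 1 (Notch3) and limma-voom 0. There 7 of 8 log2 fold changes were above 0, Notch3 being the exception, with a median of 0.48 against 0.05 over all genes.

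Notch2, a broadly expressed receptor, was at 35.4, 126, 65.7, 35.9 and 33.3 CPM in control mice at 15 h and at 36.0, 31.3, 23.6, 34.0 and 28.5 CPM in Jag antibody mice. Control mouse 2 stood far above the rest, and the same mouse had the highest summed level of 10 myeloid markers in its group, 6275 CPM against a group median of 786. The log2 fold change was -0.95 (SE 0.28, adjusted p = 0.073), and -0.46 without that mouse. Dll4, the tip-cell ligand of vessels, was at 12.4, 13.1, 14.7, 17.4 and 16.6 CPM in control mice at 15 h and at 6.25, 11.1, 9.37, 9.62 and 11.7 CPM in Jag antibody mice. These mice did not overlap, but over all genes the log2 fold change of -0.63 (SE 0.29, interval -1.21 to -0.04) did not pass the test (adjusted p = 0.36).

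The transcripts of the blocked ligands themselves were not called in any antibody comparison. Jag1, the main ligand of mural Notch3, was at 22.4, 15.1, 28.8, 11.4 and 22.6 CPM in control mice at 7 d and at 29.6, 31.7, 30.1, 28.6 and 35.5 CPM in Jag antibody mice. Only control mouse 3 reached the Jag antibody range, and the log2 fold change was 0.63 (SE 0.24, interval 0.15 to 1.11, adjusted p = 0.139). Jag2, the second blocked ligand, gave log2 fold changes between -0.23 and 0.36 in the 4 antibody comparisons, and the widest interval reached from -0.27 to 0.99 at 7 d. For Dll1, a ligand of low level here, the 4 values ran from -0.46 to 0.23, with an interval of -1.09 to 0.17 for the lowest. Notch1, the main endothelial receptor, ran from -0.45 to 0.83 and Notch4 from -0.46 to 0.60. For each of these 4 genes, a change of 1.5-fold lay inside the interval of at least 1 antibody comparison.

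**Figure D3:**
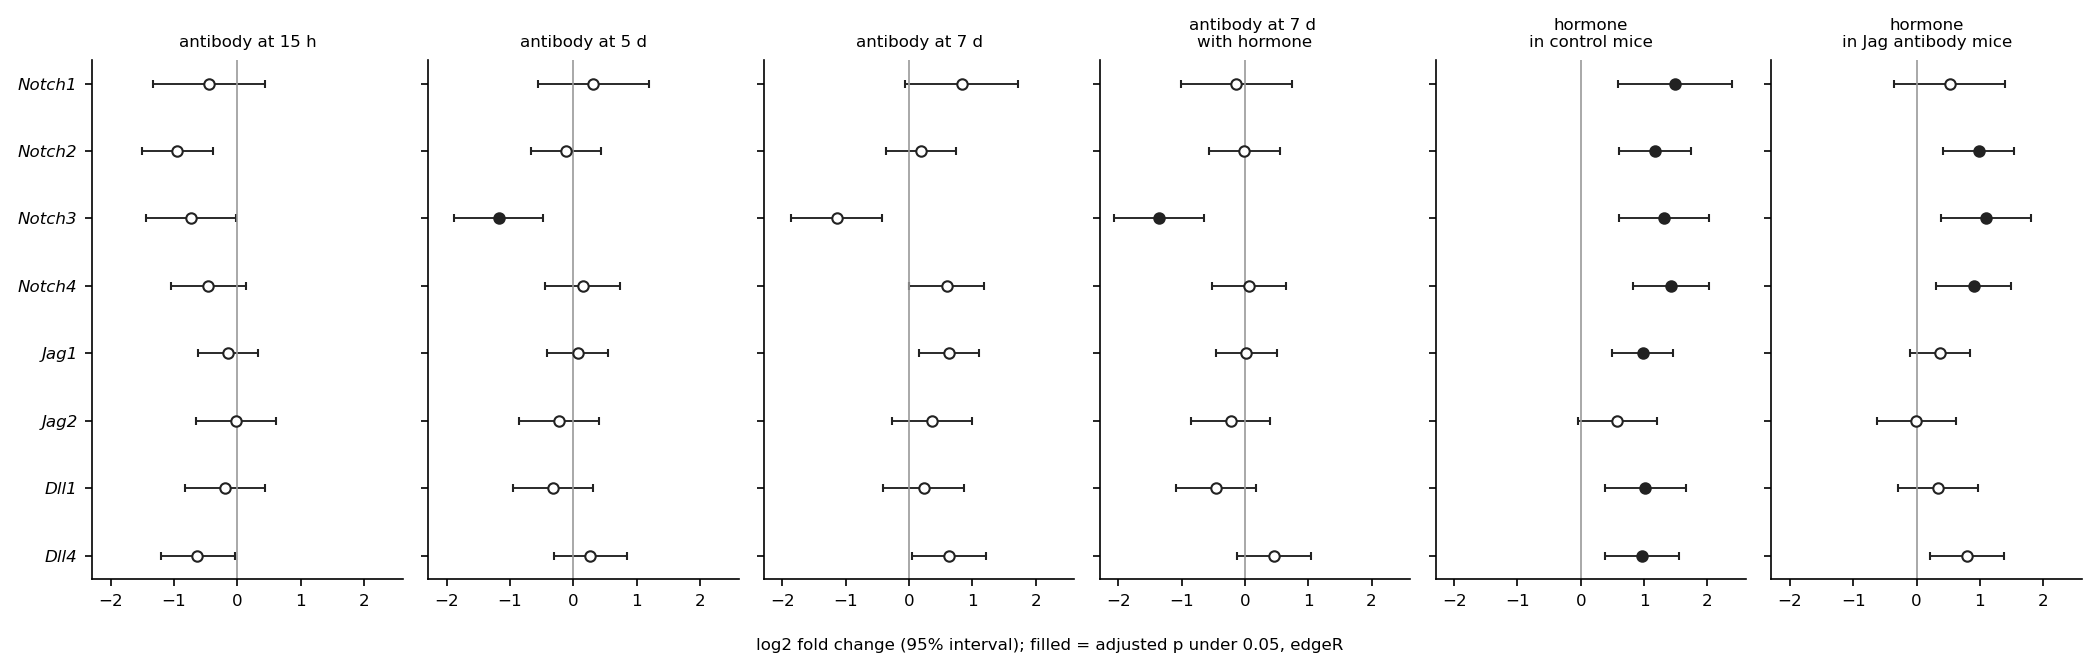
Log2 fold change of each member with its 95% interval in the 4 antibody comparisons (Jag antibody minus control) and the 2 hormone comparisons (hormone minus none), from edgeR, filled where the adjusted p is under 0.05. Notch3 is the only filled point among the antibody comparisons, at -1.18 and -1.35, and 7 of 8 points are filled for hormone in control mice.

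Thyroid hormone was accompanied by higher levels of nearly all of these genes in control mice, and fewer of them were called in Jag antibody mice. In control mice 7 of the 8 members rose, against 20.3% of all genes rising and 43.2% called in either direction. Their median log2 fold change was 1.10, against 0.04 over all tested genes. Under the Jag antibodies 3 of 8 rose (Notch2, Notch3 and Notch4), against 4.29% of all genes rising and 9.5% called either way, with a median of 0.66 over the 8. The 2 hormone comparisons use different mice. The interaction called 0 of 8 members with edgeR, DESeq2 and limma-voom, against 0.00586% of all genes called with edgeR. By edgeR, 0 of 8 members had an interaction at an unadjusted p under 0.05, as had 2103 of all tested genes. All 8 interaction values were below 0, from -0.96 for Notch1 to -0.17 for Dll4. The comparison of hormone in control mice uses the same control mice at 7 d as the antibody comparison at 7 d.

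Among the receptors, Notch4 went from 10.2, 11.0, 22.0, 13.9 and 16.7 CPM in control mice at 7 d to 33.0, 28.4, 44.3, 45.0 and 47.9 CPM with hormone, a log2 fold change of 1.43 (SE 0.30, edgeR adjusted p = 0.000305). Notch2 went from 30.4, 29.1, 30.4, 22.2 and 32.9 CPM to 61.0, 77.6, 58.5, 53.8 and 76.3 CPM, a change of 1.17 (SE 0.28, adjusted p = 0.00105). Neither set of mice overlapped its controls. Notch3, whose values are given above, rose by 1.31 (SE 0.35, adjusted p = 0.00323), also with no overlap. Notch1 went from 12.5, 11.0, 30.8, 9.62 and 18.7 CPM to 40.5, 36.0, 47.5, 48.2 and 60.1 CPM, rising by 1.49 on the log2 scale (SE 0.44, adjusted p = 0.00725). Control mouse 3 was the highest of the control mice at 7 d without hormone for Notch1, Notch3 and Notch4. The same mouse was also the highest there for Jag1, Jag2 and Dll1.

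Among the ligands, Jag1 went from the control values at 7 d given above to 39.3, 44.7, 44.2, 32.2 and 37.8 CPM with hormone, a log2 fold change of 0.98 (SE 0.24, edgeR adjusted p = 0.00141). Dll4 went from 11.8, 10.5, 16.4, 19.6 and 12.6 CPM to 24.4, 27.3, 23.8, 29.0 and 34.1 CPM, a change of 0.97 (SE 0.29, adjusted p = 0.0073). The mice of these 2 genes did not overlap. Dll1 went from 2.45, 2.02, 5.70, 2.91 and 4.21 CPM to 5.55, 4.48, 9.32, 8.68 and 7.38 CPM, which overlap, a change of 1.02 (SE 0.32, adjusted p = 0.00916). Jag2 was at 7.47, 9.05, 18.5, 10.8 and 15.5 CPM without hormone and at 17.6, 12.0, 21.4, 21.1 and 19.4 CPM with it, with overlap. It was the only member not called, at 0.58 (SE 0.31, interval -0.05 to 1.20, adjusted p = 0.132).

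In Jag antibody mice, Notch2 went from 32.3, 35.7, 32.0, 33.3 and 31.8 CPM to 50.3, 50.2, 84.4, 71.6 and 68.9 CPM with hormone, without overlap, a log2 fold change of 0.98 (SE 0.28, edgeR adjusted p = 0.021). Notch3 rose by 1.10 (SE 0.35, adjusted p = 0.0428) and Notch4 by 0.90 (SE 0.29, adjusted p = 0.0453), and the mice of both overlapped. Notch4 was at 13.1, 19.9, 39.7, 13.4 and 25.5 CPM without hormone and at 28.7, 25.5, 68.9, 44.0 and 40.9 CPM with it. Mouse 8 was the highest of its group for Notch4 both without and with hormone, though the 2 mice of that number are different animals. Dll4, at 11.1, 24.2, 43.6, 12.8 and 18.0 CPM without hormone and 28.2, 20.1, 72.1, 35.1 and 34.9 CPM with it, stood at 0.79 (interval 0.21 to 1.38, adjusted p = 0.0704) and was not called. Notch1 (0.52, interval -0.36 to 1.40), Jag1 (0.37, interval -0.11 to 0.85), Dll1 (0.34, interval -0.30 to 0.97) and Jag2 (-0.01, interval -0.63 to 0.62) were not called either. Leaving out 1 mouse took the number of members called from 3 to between 0 and 4: Notch3 lost its call in 6 of 10 such fits, Notch4 in 7 and Notch2 in 1.

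The size of the hormone change depended on how transcript length was treated. For each library, log2 CPM minus that of the average library was regressed on log2 exonic length. This length slope averaged -0.23 ± 0.20 in the control mice without hormone at 7 d (SD, n = 5) and 0.17 ± 0.09 in those with hormone. It averaged -0.06 ± 0.08 and 0.12 ± 0.06 in Jag antibody mice. When each library's trend with length and GC content was entered as an offset, 5 of 8 members were called in control mice: Notch1 moved from 1.49 to 0.72 (adjusted p = 0.0735) and Notch2 from 1.17 to 0.45 (adjusted p = 0.106). Notch4 remained at 0.85 (adjusted p = 0.000854), Dll1 at 0.82 (adjusted p = 0.0184), Dll4 at 0.80 (adjusted p = 0.0166), Notch3 at 0.76 (adjusted p = 0.0231) and Jag1 at 0.63 (adjusted p = 0.00359), all by edgeR. In Jag antibody mice the offsets left Notch3 (0.96, adjusted p = 0.0175) and Notch4 (0.81, adjusted p = 0.00572) called and took Notch2 to 0.63 (adjusted p = 0.0558). Without the 4 libraries of lowest slope, a choice made after seeing the data, 6 members stayed called in control mice and Dll1 was lost (0.76, adjusted p = 0.0768). These libraries were control mice 2 and 5 at 5 d and control mice 2 and 4 at 7 d without hormone. The removal thus fell only on control mice without hormone. The shares of all genes called with the offsets and after the removal are not given here.

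**Figure D4:**
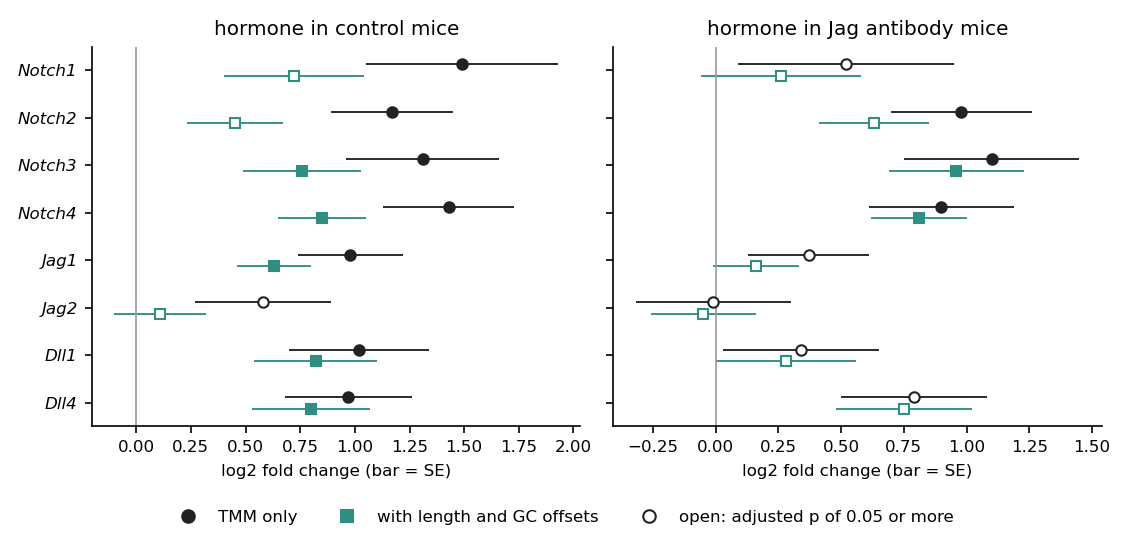
Log2 fold change with hormone for each member, with its SE, without (circles) and with (squares) per-library length and GC offsets, in control mice (left) and Jag antibody mice (right); open symbols have an adjusted p of 0.05 or more. Every value in control mice lies closer to 0 with the offsets, and Notch1 and Notch2 become open.

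Over time, 1 member was called. From 15 h to 5 d in control mice Notch2 fell by 1.05 on the log2 scale (SE 0.28, edgeR adjusted p = 0.00444), 1 of 8 members against 20.1% of all genes falling and 36.4% called either way. The values at 5 d were 42.5, 12.3, 38.6, 27.1 and 22.7 CPM, which overlap those at 15 h. Without control mouse 2 at 15 h, the one at 126 CPM, the change was -0.52 (adjusted p = 0.0971), and without the 4 libraries of lowest length slope it was -0.64 (adjusted p = 0.115). In the same comparison 8 of 10 myeloid markers fell (all 10 values below 0, median -3.44) and 6 of 8 fibroblast markers rose (median 1.18). The summed CPM of the myeloid markers had a median of 786 (299 to 6275) at 15 h and 494 (355 to 659.7) at 5 d. Their part in the Notch2 result was not tested. From 5 d to 7 d in control mice edgeR called 0 of 8 against 9.13% of all genes, and DESeq2 and limma-voom called 0. By edgeR, 1 member (Dll1) was there at an unadjusted p under 0.05, as were 4646 of all tested genes. In Jag antibody mice edgeR, DESeq2 and limma-voom called 0 of 8 from 15 h to 5 d, against 14.5% of all genes. There 2 members (Notch4 and Dll4) were at an unadjusted p under 0.05 by edgeR, as were 5294 of all tested genes. From 5 d to 7 d in Jag antibody mice edgeR, DESeq2 and limma-voom called 0 of 8, against 3.29% of all genes. There 0 members were at an unadjusted p under 0.05 by edgeR, against 3078 of all tested genes. Dll4 in Jag antibody mice was higher in all 5 mice at 5 d (13.2 to 18.4 CPM) than in any at 15 h (6.25 to 11.7 CPM), at 0.78 (interval 0.19 to 1.37, adjusted p = 0.0632).

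Markers of vessel cells and of fibroblasts moved in the same comparisons, and in bulk tissue fewer cells of a type and less RNA per cell cannot be told apart. The summed CPM of 10 mural markers had a median of 769.6 (range 398 to 916) in control and 521 (472 to 676) in Jag antibody mice at 15 h, while their mean log2 CPM was 4.63 ± 0.44 and 4.77 ± 0.30 (SD, n = 5) and 6 of the 10 log2 fold changes were above 0. The sum had a median of 717 (range 437 to 1163) in control and 427 (348 to 488) in Jag antibody mice at 5 d. At 7 d the medians were 788 (679.7 to 1217) and 396 (288 to 544), and with hormone 874 (668 to 953) and 341 (315 to 488). Of the 10 markers, 2 fell at 5 d (Rgs5 by 1.41 and Pdgfrb by 0.60 on the log2 scale), 2 at 7 d (Rgs5 by 2.37 and Kcnj8 by 1.30) and 1 at 7 d with hormone (Rgs5 by 2.32). Log2 fold changes below 0 were found for all 10 at 5 d (median -0.47) and 9 of 10 at 7 d (median -0.64). With hormone at 7 d, all 10 were below 0 (median -0.65). Rgs5 is a pericyte gene and Pdgfrb is the receptor that recruits mural cells. Over all mice Rgs5 had the highest median level of the 10, 209.6 CPM (63.5 to 651), so it weighs heavily in the sums. None of the 10 was under 0.1 CPM in any whole group. Of 8 fibroblast markers, 4 fell at 5 d, with all 8 values below 0 and a median of -1.41. Their summed CPM at 5 d had a median of 3343 (1521 to 6375) in control and 1159.8 (871 to 1755) in Jag antibody mice. At 7 d 1 of 8 fell (median -0.26), and at 7 d with hormone 3 of 8 fell (median -0.69), with summed medians there of 4279.7 (2656 to 5547) and 1779 (961 to 2451). The part of the mural and fibroblast markers in the Notch3 result was not tested. The number of endothelial markers called with the antibody was 0 of 10 at 15 h, at 5 d and with hormone. At 7 d it was 1 of 10 (Emcn, which fell by 0.89). At an unadjusted p under 0.05 by edgeR were 0 at 15 h, 1 at 5 d, 0 with hormone and 2 at 7 d. Over all tested genes these numbers were 2052, 3907, 2026 and 3504, in the same order. In that order, 4, 10, 6 and 6 of the 10 endothelial values were above 0. Their medians were -0.04, 0.25, 0.09 and 0.21, against -0.04, 0.04, -0.02 and 0.05 over all tested genes.

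**Figure D5:**
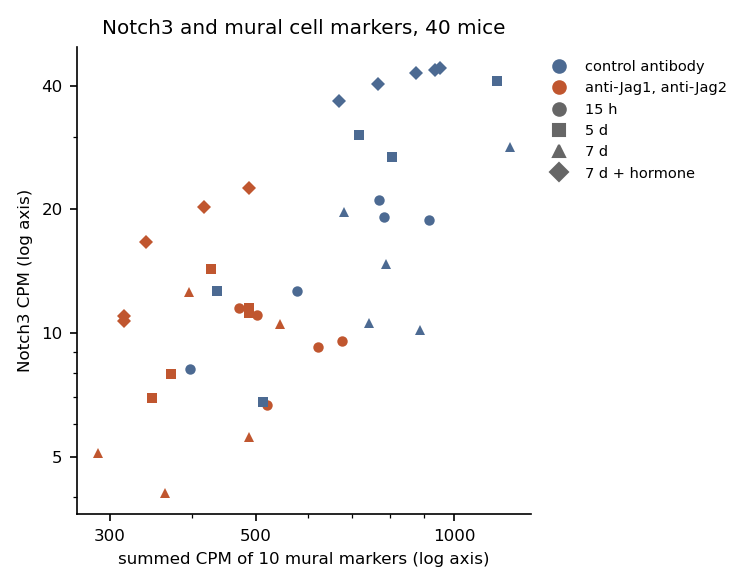
Notch3 CPM of each mouse against the summed CPM of 10 mural markers in the same mouse, both on log axes, coloured by antibody with a symbol per time. With hormone, the 5 Jag antibody mice lie at 315 to 488 summed CPM and 10.7 to 22.5 CPM of Notch3, below and left of the 5 control mice.

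Relative to the mural sum, Notch3 at 7 d was higher with hormone than without it. It was 4.63 to 5.50% of that sum in control mice with hormone and 3.41 to 4.89% in Jag antibody mice with hormone, against 1.15 to 2.90% and 1.12 to 3.17% without hormone at 7 d. In control mice at 5 d, without hormone, it ran from 1.32 to 4.23%, into the range of the Jag antibody mice with hormone. The ratio was not corrected for transcript length, whose trend differed between the hormone groups as given above. With hormone in control mice, 5 of 10 endothelial markers rose and 2 fell, and the median of their summed CPM was 733 (517 to 968) without and 1079 (938 to 1261) with hormone. Under the Jag antibodies 1 of 10 rose, with summed medians of 657 (494 to 1067) and 1002 (857 to 1441). Of the 10 mural markers 2 rose and 3 fell with hormone in control mice, and 1 rose and 2 fell in Jag antibody mice. Cdh5, the adhesion protein of endothelial junctions, rose by 1.48 (SE 0.30, edgeR adjusted p = 0.000277) in control and by 0.99 (SE 0.30, adjusted p = 0.0317) in Jag antibody mice. Of the other endothelial markers called in control mice, Tie1 stood at 1.22 and Emcn at -1.08. The mural markers Tagln, Cnn1 and Acta2 stood at -2.77, -1.91 and -1.86 there. In Jag antibody mice the mural markers called were Tagln at -1.80, Acta2 at -1.72 and Pdgfrb at 1.15. Proliferation markers rose in 4 of 4, from a summed median of 3.07 to 95.4 CPM in control and from 3.06 to 23.6 CPM in Jag antibody mice. Fibroblast markers rose in 5 and 4 of 8, and myeloid markers in 6 and 3 of 10, in the same order. Among the proliferation markers, Ccnb1 was under 0.1 CPM in every Jag antibody mouse at 7 d without hormone. Its median over all mice was 0.0991 CPM. Of the 10 brown adipocyte markers 6 fell with hormone in control mice (median -1.42, 9 of 10 values below 0), and 3 fell in Jag antibody mice (median -0.78, all 10 below 0). Their summed CPM had a median of 36809.8 (33604 to 70541) without and 16204 (11006 to 17491) with hormone in control mice, and of 33398 (16329 to 39032) and 17809 (15144 to 21121) in Jag antibody mice. The part of these markers in the hormone result was not tested.

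Within groups, many of the members varied with each other and with endothelial markers, Notch2 and Jag1 least with the latter. Over the 40 mice, with each group mean subtracted from log2 CPM, Pearson's r with the mean of the endothelial markers was 0.78 for Notch3 and Notch4, 0.77 for Dll4, 0.71 for Notch1, 0.64 for Dll1, 0.45 for Jag2, 0.26 for Jag1 and 0.09 for Notch2. With the mural markers it was 0.61 for Notch3 and between 0.09 and 0.36 for the other 7. Among the remaining marker lists, the largest values in size were -0.55 for Notch2 with brown adipocyte and -0.51 for Notch3 with myeloid markers. Next came -0.48 for Dll4 with fibroblast and 0.45 for Notch2 with myeloid markers. Pairs of members ranged from 0.80 (Notch1 with Notch4) to -0.07 (Jag1 with Jag2). These values are descriptions: both members of a pair share a library and its length trend, and r with the length slope was 0.90 for Jag1, 0.70 for Notch1 and 0.58 for Notch2 and Notch3. The genes most like each member among 12132 compared, by the same r, were Adcy6 (0.91), Tie1 (0.90) and Ripor1 (0.90) for Notch3, Adgrg1 (0.87), Ppard (0.86) and Mark2 (0.86) for Notch4, and Tbkbp1 (0.75), Flt4 (0.74) and Dhx37 (0.73) for Dll4. For Notch1 they were Cdc42bpb (0.92), Sipa1l3 and Inf2 (both 0.91), for Notch2 Cbl (0.83), Clcn5 (0.82) and Srgap2 (0.80), and for Jag1 Ubn2 (0.92), Phc3 and Phf8 (both 0.91). Jag2 was closest to Agap3 (0.87), Ints1 (0.86) and Caskin2 (0.84), and Dll1 to Prkd2 and Ephb4 (both 0.77) and Kif26a (0.76).

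Of 42 other genes of the pathway, 38 were tested with the antibody. At 15 h 1 of 38 was called, against 1.14% of all genes: Rbpj, the DNA-binding partner of all 4 receptors, fell by 1.27 on the log2 scale (SE 0.28, edgeR adjusted p = 0.0321). That call was lost in 7 of 10 fits without 1 mouse, and with limma-voom (-1.09, adjusted p = 0.146), with no filter on low counts (-1.23, adjusted p = 0.0623) and with only the 2 groups fitted (-1.27, adjusted p = 0.312). At 5 d 3 of 38 fell and 1 rose, against 8.02% of all genes called either way. Mfng, a glycosyltransferase that modifies the receptors, fell by 1.42 (SE 0.33, adjusted p = 0.00943), the ubiquitin ligase genes Neurl1a and Dtx3 fell by 5.26 (SE 1.01, adjusted p = 0.00357) and 1.04 (SE 0.20, adjusted p = 0.00336), and Aph1a, a subunit of the receptor-cutting gamma-secretase, rose by 0.74 (SE 0.21, adjusted p = 0.027). All 4 lost their call with the muscle score as a covariate, with adjusted p from 0.0713 to 0.28. There Aph1a stood at 0.64 and Dtx3 at -0.86, while Mfng stood at -0.98 and Neurl1a at -2.71. For 7 d without and with hormone edgeR called 0 of 38, against 2.5% and 1.14% of all genes. In the same order, 8 and 5 of the 38 were at an unadjusted p under 0.05, as were 3504 and 2026 of all tested genes.

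None of the 5 target genes tested (Hes1, Hey1, Hey2, Heyl and Nrarp) was called in an antibody comparison by edgeR. Hes1, a repressor switched on by Notch, came closest, at -0.94 (adjusted p = 0.0685) at 15 h and -0.82 (adjusted p = 0.0907) at 7 d. With hormone in control mice 14 of the 38 genes rose and 3 fell, against 20.3% of all genes rising and 43.2% called either way, with a median of 0.35 against 0.04. The receptor-cutting protease Adam10 rose by 1.21 (SE 0.26, adjusted p = 0.000383), Rbpj by 1.21 (SE 0.28, adjusted p = 0.000967) and the ligand ubiquitin ligase Neurl1b by 1.18 (SE 0.28, adjusted p = 0.00117). The gamma-secretase subunits Psenen and Aph1a fell by 1.78 (SE 0.41, adjusted p = 0.000767) and 0.61 (SE 0.21, adjusted p = 0.0189), and Dtx2 fell by 1.03 (SE 0.23, adjusted p = 0.000533). With length and GC offsets Rbpj stood at 0.57 (adjusted p = 0.0579). Under the Jag antibodies none of the 38 rose and 2 fell with hormone, against 9.5% of all genes called either way: Mfng by 1.03 (SE 0.33, adjusted p = 0.0425) and Dtx2 by 1.00 (SE 0.23, adjusted p = 0.00464).

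The 40 libraries held 12217623 to 36511893 counts. In each library every member had at least 20 counts, the lowest being Notch1 in control mouse 5 at 5 d, a library with a length slope of -0.45. None of the 10 brown adipocyte markers was under 0.1 CPM in any whole group, and no pair of mice within a group agreed within sampling noise.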

How the data were processed

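Brown adipose tissue RNA of 40 mice was sequenced as single-end 50 bp reads, per the labels' protocols. The authors deposited whole-number counts per Ensembl gene. GSNAP and limma are named in the submitters' processing notes. The genome build, the counting program and its use of strand are not given in the sources used here. Groups were taken from the labels, which do not name litters or batches. The members and gene lists were chosen with earlier results of these data known.

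Symbols were matched for 52403 of 52636 identifiers, and lengths came from GENCODE M21 on GRCm38. The test was that of edgeR 4.0.16, run under R 4.3.3. The filterByExpr rule over the 8 groups left 17079 genes, libraries were scaled by TMM, and 1 robust quasi-likelihood fit with a mean per group covered all 40 libraries. P-values were Benjamini-Hochberg adjusted over all genes tested, at 0.05, in 10 comparisons of 2 groups and 1 interaction. Standard errors are those implied by the F statistic, intervals are at 95%, and log2 CPM used a prior count of 2. CPM values are counts scaled to a common TMM-adjusted total, and they rest on 12217623 to 36511893 counts per library.

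Alternatives were DESeq2 1.42.0, limma-voom (limma 3.58.1), RLE size factors, no low-count filter, only the groups compared, a muscle score as a covariate, per-library length and GC offsets (lowess span 0.3), the replicate number as a block, and each mouse left out. Leaving out the 4 libraries with a length slope under -0.25, all of control mice without hormone, was added after seeing the data. Simulated counts on 17079 genes for hormone in control mice recovered 4 of 50 genes changed 1.5-fold, 19 of 50 changed 2-fold and 40 of 50 changed 3-fold. Few genes were changed in the simulation, whereas 43.2% of all genes were called in the data. The adjusted p cut-off therefore differs between them, and these counts do not measure the power of the real comparison.

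Named genes were all members, other pathway genes called with the antibody, up to 3 per direction called with hormone, up to 3 markers per list in comparisons where a member was called, and the 3 genes most like each member. Mural and endothelial markers named at 7 d, where no member was called, Hes1, and the GC and TATA box motifs were chosen after their values were seen.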

Additional observations from a re-analysis of the deposited data

How the results depend on the processing

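Called members kept their direction under every alternative run, and what changed was mainly the side of the threshold. At 15 h, 1 member (Notch2) was called with the antibody under length and GC offsets and under DESeq2. At 5 d, 0 were called with no filter, the muscle covariate, limma-voom or only the groups compared, where Notch3 lay between -1.01 and -1.26. At 7 d, 1 (Notch3) was called under offsets, DESeq2 or without the 4 low-slope libraries. At 7 d with hormone, 0 were called with no filter, and with hormone in Jag antibody mice 1 (Notch2). In that comparison Notch4 was also lost with the muscle covariate (0.87, adjusted p = 0.0524) and only the groups compared (0.91, 0.102), Notch3 with limma-voom (1.14, 0.0554), and Dll4 was gained under DESeq2 (0.82, 0.0390). From 15 h to 5 d, control mice gave 2 calls under RLE or DESeq2 and 0 with only the groups compared. There, leaving out the 4 low-slope libraries replaced Notch2 by Notch3. The cause of these shifts was not tested. The shares of all genes called under these alternatives are not given here. A shift of the members therefore cannot be set apart from a shift of the whole fit.

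Leaving out 1 mouse gave 0 to 1 calls in each of the 4 antibody comparisons, 7 in every fit for hormone in control mice, 0 to 4 in Jag antibody mice, 0 to 3 from 15 h to 5 d and 0 to 1 from 5 d to 7 d in control mice. Over the same fits the number of all genes called ran from 6 to 683 with the antibody at 15 h and from 384 to 2833 at 5 d. It ran from 144 to 912 at 7 d and from 79 to 241 at 7 d with hormone. For hormone it ran from 5986 to 7530 in control and from 1002 to 1903 in Jag antibody mice. In control mice it was 4317 to 7623 for 15 h to 5 d and 512 to 2632 for 5 d to 7 d. Sign changes of members occurred only in values that were not called. Jag2 at 15 h became 0.00 with no filter, 0.10 under offsets and 0.02 with limma-voom (-0.12 to 0.27 without 1 mouse). At 5 d, without the low-slope libraries, Notch1 became -0.21, Notch4 -0.17 and Jag1 -0.29, and with the muscle covariate Notch4 became -0.01 and Jag1 -0.05. Without 1 mouse at 5 d the ranges were -0.03 to 0.50 for Notch1, -0.35 to 0.07 for Notch2, -0.06 to 0.32 for Notch4, -0.18 to 0.32 for Jag1 and -0.37 to 0.00 for Jag2. At 7 d Notch2 became -0.09 under offsets and Dll1 -0.02 without the low-slope libraries. With hormone, offsets took Notch1 to 0.00 and Notch2 to 0.09, and the ranges without 1 mouse were -0.12 to 0.07 for Notch2, -0.19 to 0.20 for Notch4 and -0.06 to 0.11 for Jag1. Jag2 with hormone in Jag antibody mice became 0.01 under RLE, no filter and DESeq2, 0.03 with the muscle covariate and 0.00 with only the groups compared (-0.15 to 0.15). The interaction of Notch2 became 0.18 under offsets and 0.19 under offsets with the replicate block. That of Notch3 became 0.20 and 0.21, and 0.00 without the low-slope libraries (-0.47 to 0.06), and that of Dll4 ran from -0.54 to 0.25.

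With the longest transcript as length, the level of Jag2 moved from 2.08 to 2.84 CPM per kb, and 25 of the 28 pairs of members kept their order. The lengths differed most for Notch1, with 14232 exonic bases and 9488 in its longest transcript. Its level and its share of the receptors are higher with the latter, and it then stands above Jag2 and Notch3. Same-numbered mice are different animals, so the numbers were not taken to pair them. Their deviations from group means correlated at -0.54 to 0.70, with a positive mean in each comparison (0.09 to 0.21). From 15 h to 5 d in Jag antibody mice, 4 of 5 correlated best with the mouse of their own number. The labels do not say whether a number marks a shared batch. With the replicate block, 7 members were called for hormone in control mice and 3 in Jag antibody mice, or 5 and 3 with the offsets as well, where in Jag antibody mice Notch2 (adjusted p = 0.0688) gave way to Dll4 (0.0376). From 15 h to 5 d in Jag antibody mice the block gave 1 call (Dll4), the block with offsets 1 (Notch4) and the fit of only the groups compared 2. Depth limits most the values of Dll1, the member of lowest mean level, with as few as 23 counts in a library.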
